A study of Mus musculus with 32 samples.

Results

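The transcripts of 38 heat-shock proteins and cytosolic chaperones were followed over a day in mouse interscapular brown adipose tissue (iBAT), a thermogenic fat depot of the upper back. The members were taken by name: each is the row of the count table whose Ensembl identifier carries 1 of 38 listed gene symbols, and all 38 were found among the 50686 genes of the table. All 38 passed the filter on low counts, which left 15505 genes for testing. iBAT came from male C57BL/6J mice of 10 weeks of age that ate chow ad libitum, were not fasted and were killed by CO2 inhalation. The labels name no allele and no agent, and the 8 groups differ in them by the hour of collection. Time is Zeitgeber time (ZT), the hours since lights on: ZT0 opens the light (inactive) phase, ZT12 opens the dark (active) phase, and collections were 3 h apart with 4 mice and 4 libraries at each. Each mouse gave tissue at 1 time only, so a course over the day is a course over different mice.

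Total counts ran from 16300770 to 18254659 per library. Levels are given in CPM, that is, counts relative to the TMM-scaled size of the library, as mean ± SD over 4 mice. Transcript totals of whole tissue do not tell a change in the number of cells of a type from a change in RNA per cell. The brown adipocyte markers were all detected, with a summed level of 3447 to 7480 CPM for 8 genes. Markers of skeletal muscle varied widely between libraries: 13 genes summed to 56.7 CPM in the lowest and 8144 CPM in the highest library. The lowest sum at ZT15 was 864 CPM, while each other hour had a library at or below 88.8 CPM, and 0 of the 13 genes were called between time points by edgeR. Sequencing lane 2 held the libraries of ZT0, ZT3 and ZT6, lane 3 held ZT9, ZT12 and ZT15, and lane 4 held ZT18 and ZT21, so that hour and lane cannot be told apart except between hours of the same lane.

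Chaperones bind proteins that are unfolded or partly folded and keep them from clumping until they fold, are handed on or are degraded. HSP70 proteins do this in cycles driven by ATP, in which J-domain proteins deliver the client and HSP110 and BAG proteins exchange the nucleotide. HSP90 takes over clients such as steroid receptors and kinases with the help of co-chaperones. Small HSPs hold clients without ATP, and the chaperonin CCT folds actin and tubulin inside a barrel of 8 different subunits. The transcription factor HSF1 drives the inducible genes among them from heat-shock elements, arrays of the letters GAA and TTC in alternating direction. Brown fat makes heat itself, by uncoupling respiration in its mitochondria.

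Promoter windows with such letters facing each other are printed for 5 members, chosen after their values were seen: Hspa1b, Hsph1 and Hspb1 as members with wide courses, Hspd1 as one with a small course, and Dnajb6 as the member higher at ZT12 than at ZT0. RefSeq promoter windows on GRCm38.p6 were given for 31 of the 38 members, and the 250 bases before the transcription start were searched for the letters GAANNTTC and TTCNNGAA, each its own reverse complement, where matches of the 2 motifs may overlap by 3 letters. A match stood in 15 of 40 windows of members and in 12.8% of all 32851 windows. By gene, 13 of the 31 members had a match, and the share by gene was not counted for all genes. Overlapping windows can hold the same match, as those of Hsph1 and of Dnajb6 do. Capitals mark the matches. The window of Hspa1b (chr17:34959239-34959488, minus strand) holds its match 104 bases before the transcription start, and the window of its neighbour Hspa1a was identical to it in 247 of 250 bases. The windows of Hspd1 (chr1:55087933-55088182, minus strand) and Hspe1 lie head to head and share the same 3 overlapping matches. The other windows printed are those of Hsph1 (chr5:149636316-149636565, minus strand), Hspb1 (chr5:135887669-135887918, plus strand) and Dnajb6 (chr5:29735648-29735897, plus strand).
Hspa1b: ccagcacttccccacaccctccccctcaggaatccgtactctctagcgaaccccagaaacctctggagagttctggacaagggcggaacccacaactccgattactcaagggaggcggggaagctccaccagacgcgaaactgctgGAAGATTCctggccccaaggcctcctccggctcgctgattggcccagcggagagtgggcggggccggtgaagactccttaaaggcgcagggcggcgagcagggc
Hsph1: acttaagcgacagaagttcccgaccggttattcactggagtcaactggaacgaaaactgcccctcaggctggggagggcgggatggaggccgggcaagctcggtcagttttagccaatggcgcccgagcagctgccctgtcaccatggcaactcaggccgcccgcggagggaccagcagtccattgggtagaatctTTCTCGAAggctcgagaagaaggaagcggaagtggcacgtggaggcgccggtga
Hspb1: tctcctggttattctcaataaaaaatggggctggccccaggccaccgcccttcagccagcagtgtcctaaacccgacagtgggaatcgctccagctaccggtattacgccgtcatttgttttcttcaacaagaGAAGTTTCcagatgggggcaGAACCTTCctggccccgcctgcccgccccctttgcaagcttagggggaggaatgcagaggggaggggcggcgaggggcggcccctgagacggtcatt
Dnajb6: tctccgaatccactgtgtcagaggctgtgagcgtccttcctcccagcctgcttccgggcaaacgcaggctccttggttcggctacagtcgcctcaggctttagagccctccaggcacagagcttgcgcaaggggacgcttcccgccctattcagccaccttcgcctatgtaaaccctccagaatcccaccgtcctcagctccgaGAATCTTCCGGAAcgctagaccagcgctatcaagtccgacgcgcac
Hspd1: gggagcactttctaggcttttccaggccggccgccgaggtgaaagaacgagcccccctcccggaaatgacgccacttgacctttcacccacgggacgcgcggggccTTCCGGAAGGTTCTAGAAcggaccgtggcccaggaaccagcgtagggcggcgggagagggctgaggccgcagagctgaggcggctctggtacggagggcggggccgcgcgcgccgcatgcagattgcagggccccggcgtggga

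Members without these letters also moved over the day. Dnajb1 had 0 matches in either of its windows and a highest time-point mean 3.06 times its lowest, while Dnaja1, with 1 match in 1 of its 3 windows, had a ratio of 3.84. The ratio was 1.29 for Hspd1, with 3 matches in 1 of its 2 windows, and 10.8 for Hsph1 with 1 match in each of its windows. These matches and the share of members with a match are descriptions, and their relation to the courses was not tested.

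The question of the time course was which transcripts oscillate over a day. Most chaperone transcripts did. The decrease after ZT0 was shared by most of them, with 30 members falling from ZT0 to ZT3 (6.6% of all genes fell). The return at ZT15 passed the test in 18 (2.03% of all genes), among them no CCT subunit and no mitochondrial chaperone, and the decrease from ZT18 to ZT21 in 8 (0.826% of all genes). By JTK, a rank test against cosine templates of 21 and 24 h, 32 of the 38 members oscillated at P under 0.05, where 39.7% of all tested genes did. The same 32 members passed after adjustment by Benjamini-Hochberg (BH) for all genes tested, against 30.4% of genes. In the quasi-likelihood test of edgeR, BH-adjusted, 33 members had a 24 h cosine component (36.1% of all genes) and 34 differed between the 8 time points (39.8% of all genes). The members not called between time points were Bag1 (adjusted p = 0.179), Cryab (0.455), Stub1 (0.0568) and Hspa9 (0.539). The ratio of the highest to the lowest time-point mean had a median of 1.92 over the members and of 1.42 over all tested genes. The highest mean fell at ZT0 for 26 members, at ZT15 for 6, at ZT18 for 5 and elsewhere, at ZT6, for Hsf2. The lowest mean fell at ZT6 for 11, at ZT9 for 12 and at ZT12 for 9 members.

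**Figure D1:**
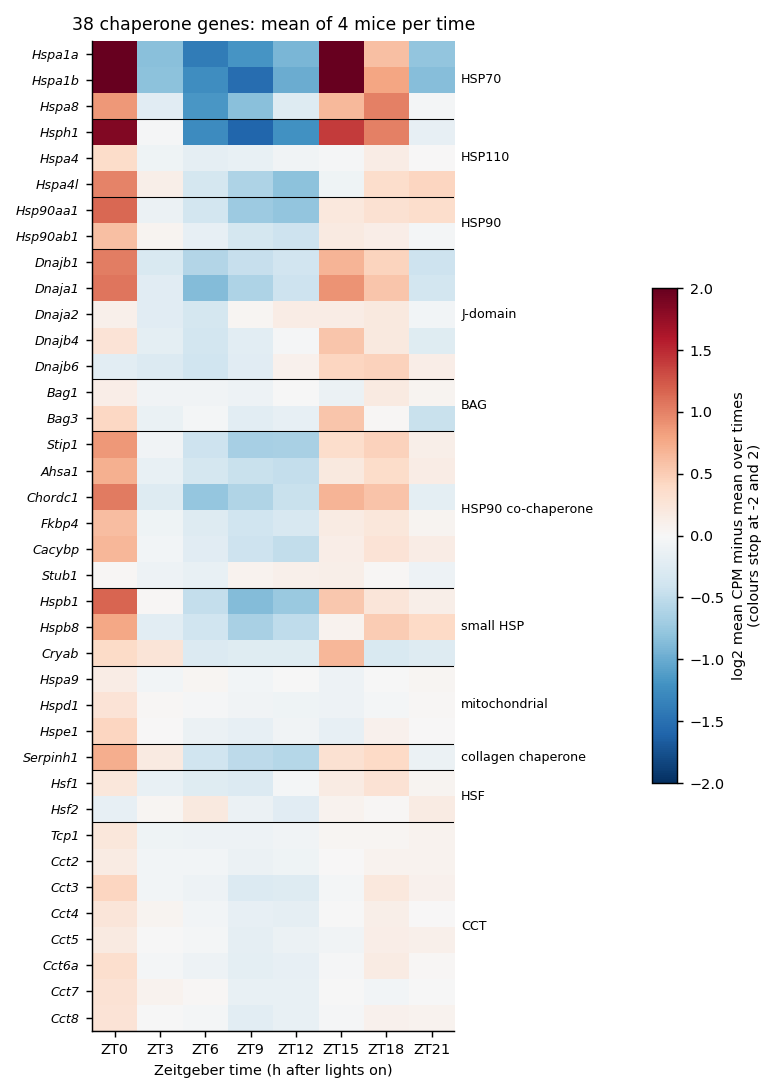
Rows are the 38 members grouped by role and columns the 8 time points; colour is the log2 of the mean CPM of 4 mice minus the row's mean over the times, with colours ending at -2 and 2. The ZT0 column is red for 26 members that have their highest mean there, red returns at ZT15 and ZT18, and the rows of the mitochondrial and CCT groups are pale.

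The inducible HSP70 genes Hspa1a and Hspa1b, nearly silent in unstressed cells, had the widest course by the ratio of highest to lowest mean. By 24 h cosine amplitude on the log2 scale Hsph1 was wider, with 1.29 against 1.12 for Hspa1b and 1.04 for Hspa1a. Hspa1b stood at 7.45, 15.7, 19.4 and 4.45 CPM in the 4 mice of ZT0, and at 0.72, 1.53, 1.51 and 1.76 CPM at ZT3. It stayed at 0.597, 1.36, 1.07 and 1.06 CPM at ZT6, at 0.757, 0.637, 1.33 and 0.665 CPM at ZT9 and at 1.14, 1.63, 1.03 and 1.1 CPM at ZT12. Thus every mouse from ZT3 to ZT12 lay below every mouse of ZT0. At ZT15 the mice stood at 14.5, 1.48, 15.4 and 18.1 CPM, at ZT18 at 4.02, 4.03, 2.48 and 6.22 CPM and at ZT21 at 1.13, 1.61, 1.11 and 1.49 CPM. The second mouse of ZT15 was at the level of ZT12, the other 3 mice were within the range of ZT0, and the mice of ZT18 stood above those of ZT12 and below those 3. The mean at ZT15 was 14.6 times that at ZT9. In edgeR Hspa1b fell from ZT0 to ZT3 (log2 -3.08 ± 0.50 SE, adjusted p = 0.000279) and rose from ZT12 to ZT15 (log2 3.33 ± 0.51 SE, adjusted p = 0.000493).

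Hspa1a, which lies beside Hspa1b on chromosome 17 and encodes a nearly identical protein, followed the same course. Its levels were 6.68, 11.8, 15.1 and 4.67 CPM at ZT0, and 0.6, 0.872, 1.39 and 1.65 CPM at ZT3. They were 0.418, 0.946, 0.561 and 1.11 CPM at ZT6, 0.757, 0.868, 0.83 and 1.09 CPM at ZT9 and 1.14, 0.988, 0.971 and 1.15 CPM at ZT12. Again ZT0 did not overlap with any of these hours. At ZT15 they were 11.4, 1.06, 13.2 and 13.5 CPM, at ZT18 3.2, 2.48, 2.25 and 4.31 CPM and at ZT21 1.02, 1.89, 0.835 and 0.92 CPM. The low mouse of ZT15 was the same as for Hspa1b. Only 43.5% of the stretches of 100 bases of Hspa1a and 50.1% of those of Hspa1b occur in no other gene, so how reads were divided between the pair is uncertain, and Hspa1a also overlaps Gm20481 on the other strand. With the counts of both genes summed, 31 of 37 members were called by JTK and 33 between time points.

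Hspa8, the constitutive HSP70, was the most abundant cytosolic HSP70 per length, at 105 CPM per kb of exon over all libraries against 1.52 for Hspa1b and 1.16 for Hspa1a. It stood at 629, 780, 936 and 563 CPM at ZT0, at 498, 227, 346 and 290 CPM at ZT3 and at 151, 194, 174 and 194 CPM at ZT6. It was 207, 238, 225 and 225 CPM at ZT9 and 359, 389, 266 and 325 CPM at ZT12. The lowest hour was ZT6, and every mouse of ZT12 was above every mouse of ZT9. It reached 560, 562, 712 and 680 CPM at ZT15 and 948, 876, 615 and 773 CPM at ZT18, and was back at 331, 489, 348 and 395 CPM at ZT21. Here the second mouse of ZT15 was not set apart, and the highest mean was that of ZT18. The decrease from ZT18 to ZT21, within a lane, passed the test (log2 -1.04 ± 0.19 SE, adjusted p = 0.005 in edgeR). Part of the exons of Hspa8 is shared with pseudogenes, with 71.5% of its stretches unique.

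**Figure D2:**
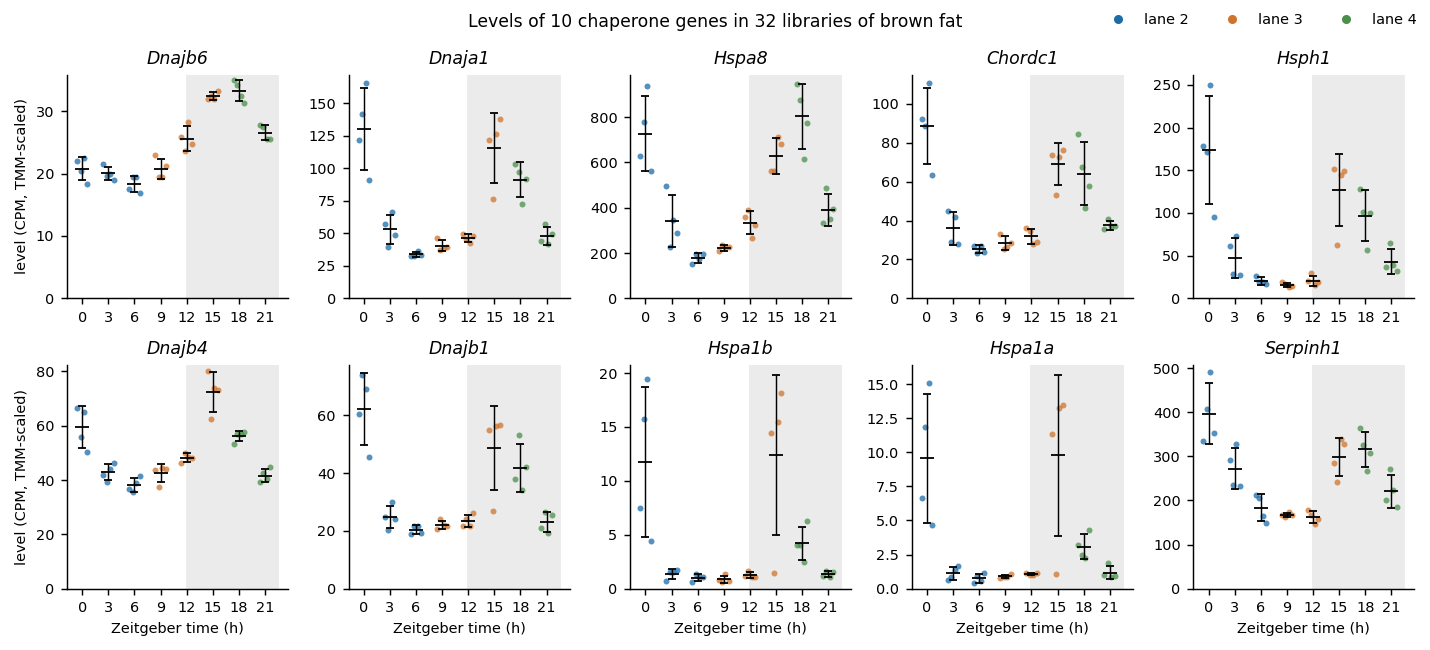
CPM (y axes, linear and from 0) against Zeitgeber time for the 10 members with the lowest p between time points; points are single mice coloured by sequencing lane, bars are mean ± SD of 4 mice, and grey marks the dark phase. In 9 panels the levels are high at ZT0 and again at ZT15 to ZT18, Dnajb6 is high in the dark phase alone, and at ZT15 1 mouse lies low for Hspa1a, Hspa1b, Hsph1, Dnajb1, Dnaja1 and Chordc1.

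Of the HSP110 genes, Hsph1 had nearly the range of the inducible HSP70 genes at a far higher level. Its levels were 178, 171, 250 and 94.7 CPM at ZT0, 61, 28.9, 73.5 and 26.9 CPM at ZT3 and 26.4, 19, 19.3 and 16.5 CPM at ZT6. They were 18.8, 17.1, 13.5 and 15 CPM at ZT9 and 19.8, 29.2, 15.1 and 19 CPM at ZT12. Every mouse of ZT6 lay below every mouse of ZT3. At ZT15 the mice stood at 151, 63.1, 145 and 149 CPM, at ZT18 at 129, 101, 56.9 and 100 CPM and at ZT21 at 36.6, 64.6, 38.8 and 32.3 CPM. The second mouse of ZT15 was again the lowest there, but above every mouse of ZT12. Hsph1 was lower at ZT12 than at ZT0 by log2 -3.06 ± 0.35 SE (edgeR, adjusted p = 9.45e-07).

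The related Hspa4 and Hspa4l changed less. Hspa4 moved between 163 ± 20.3 CPM at ZT0 and 112 ± 3.91 CPM at ZT6 (mean ± SD of 4 mice). Hspa4l moved between 119 ± 29.8 CPM at ZT0 and 33.8 ± 5.06 CPM at ZT12 (mean ± SD of 4 mice), and unlike Hsph1 it stood at 80.7 ± 14.4 CPM at ZT21. From ZT12 to ZT15 neither passed the test, with log2 0.05 ± 0.11 SE for Hspa4 (adjusted p = 0.855) and 0.73 ± 0.27 SE for Hspa4l (adjusted p = 0.136).

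HSP90 comes in an inducible form, Hsp90aa1, and a constitutive form, Hsp90ab1. Hsp90ab1 had the highest level per length of the 38 members, at 315 CPM per kb, and Hsp90aa1 stood at 26 CPM per kb. Hsp90ab1 went from 1404 ± 138 CPM at ZT0 to 692 ± 43.8 CPM at ZT12 and 1052 ± 226 CPM at ZT15 (mean ± SD of 4 mice). Hsp90aa1 went from 208 ± 54.3 to 53.8 ± 17.1 and 108 ± 26.2 CPM at the same hours, and kept to 119 ± 24 CPM at ZT21 (mean ± SD of 4 mice). Both were lower at ZT12 than at ZT0, by log2 -1.95 ± 0.27 SE for Hsp90aa1 (adjusted p = 1.47e-05) and -1.02 ± 0.14 SE for Hsp90ab1 (adjusted p = 1.49e-05). The difference between these decreases was not tested. Of the stretches of Hsp90aa1, 62% are found in no other gene.

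Of the 6 co-chaperones of HSP90, 5 differed between time points and Stub1 was not called by that test. JTK and the 24 h cosine test of edgeR called all 6, Stub1 among them. The cosine call of Stub1 held in 17 of 32 fits with a single library left out. Chordc1, a zinc-binding partner of HSP90, stood at 92.2, 88.5, 111 and 63.5 CPM at ZT0, at 44.9, 29, 41.9 and 28.2 CPM at ZT3 and at 26.9, 23.4, 27.1 and 24 CPM at ZT6. It was 33.3, 25.5, 26.4 and 28.3 CPM at ZT9 and 36, 34.7, 28.1 and 28.8 CPM at ZT12. No mouse of these 4 hours reached the lowest mouse of ZT0. The levels were 73.7, 53.2, 72.9 and 76.3 CPM at ZT15, 84.6, 67.6, 46.5 and 57.7 CPM at ZT18 and 35.4, 40.8, 37 and 37.4 CPM at ZT21. All 4 mice of ZT15 lay above all of ZT12, including the second, which was the lowest.

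Stip1, which passes clients from HSP70 to HSP90, went from 130 ± 24.4 CPM at ZT0 to 45 ± 4.49 CPM at ZT12 and 90.6 ± 14.7 CPM at ZT15 (mean ± SD of 4 mice). Ahsa1, the activator of the HSP90 ATPase, went from 86 ± 16.3 to 37.6 ± 4.3 and 59.7 ± 7.27 CPM (mean ± SD of 4 mice). Fkbp4, an immunophilin of steroid receptor complexes, went from 169 ± 18 to 87.3 ± 1.79 and 122 ± 17 CPM (mean ± SD of 4 mice). Cacybp, a partner of HSP90 and of ubiquitin ligases, went from 73.1 ± 10 to 32.8 ± 1.65 and 50.5 ± 6.96 CPM (mean ± SD of 4 mice). For these 4 genes and Chordc1 the fall from ZT0 to ZT3, the rise from ZT12 to ZT15 and the rise from ZT21 to ZT0 passed the test in edgeR. Stub1, the ubiquitin ligase that sends clients to degradation, stayed between 41.5 ± 5.23 CPM at ZT6 and 50.2 ± 1.77 CPM at ZT15 (mean ± SD of 4 mice).

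All 5 J-domain genes, the partners that feed clients to HSP70, differed between time points, but in different shapes. Dnaja1 followed the HSP70 genes: 122, 142, 165 and 90.8 CPM at ZT0, 57.2, 39.5, 66.4 and 48.7 CPM at ZT3 and 32.6, 32.5, 36.7 and 33.7 CPM at ZT6. It stood at 46.7, 37.1, 38.4 and 39.2 CPM at ZT9 and at 49.5, 45.4, 42.6 and 48 CPM at ZT12, and neither of these steps passed the test. It was 122, 76.5, 126 and 138 CPM at ZT15, 104, 96.8, 72.5 and 91.9 CPM at ZT18 and 43.7, 57.5, 41.8 and 49.5 CPM at ZT21. The mice of ZT0 and of ZT15 each stood clear of those of ZT12. The gene overlaps Smu1 on the other strand, and 83.4% of its stretches are unique.

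Dnajb1, the main J-domain partner of inducible HSP70, stood at 60.7, 74, 69.1 and 45.6 CPM at ZT0, at 24.9, 20.4, 30 and 24 CPM at ZT3 and at 18.7, 21.6, 21.6 and 19.4 CPM at ZT6. It was 20.8, 24.1, 21.9 and 21.6 CPM at ZT9 and 21.7, 24.2, 21.5 and 26.1 CPM at ZT12. From ZT3 to ZT12 the time-point means stayed between 20.4 and 24.8 CPM. At ZT15 the mice stood at 55.1, 26.9, 56.3 and 56.6 CPM, at ZT18 at 38, 53.3, 34.1 and 42 CPM and at ZT21 at 20.9, 26.5, 19.3 and 25.4 CPM. As for Hspa1b, the second mouse of ZT15 was close to the mice of ZT12. Dnajb1 rose by log2 1.06 ± 0.18 SE from ZT12 to ZT15 with this mouse included (edgeR, adjusted p = 0.00134) and by 1.26 ± 0.15 SE without it (adjusted p = 1.27e-05).

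Dnajb4 peaked at ZT15 rather than at ZT0. It stood at 66.6, 55.9, 65.2 and 50.4 CPM at ZT0, at 41.9, 39.3, 43.9 and 46.3 CPM at ZT3 and at 36.8, 35.7, 38.9 and 41.6 CPM at ZT6. It was 43.8, 37.5, 44.3 and 44.2 CPM at ZT9, 46.1, 50.1, 48.3 and 48.2 CPM at ZT12 and 80.3, 62.3, 74 and 73.2 CPM at ZT15. Every mouse of ZT12 lay above every mouse of ZT9, and every mouse of ZT15 above every mouse of ZT12. At ZT18 it was 53.3, 57, 56.9 and 57.6 CPM and at ZT21 39.1, 42.5, 40.2 and 44.6 CPM. In the edgeR test with cosines of 24 and 12 h, Dnajb4 alone among the members had a 12 h component past the threshold (adjusted p = 0.0458). Of all genes, 0.464% had one. By least squares its 12 h amplitude was 0.23 on the log2 scale, with peaks at ZT2.11 and ZT14.1. The 12 h amplitudes of Hsph1 (0.77, adjusted p = 0.0607), Hspa1b (0.91, adjusted p = 0.066) and Hspa1a (0.85, adjusted p = 0.0672) were larger on the same scale but did not pass.

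Dnajb6, a J-domain protein that holds back aggregation, had the lowest p between time points of the 38 and was not raised at ZT0. It stood at 22.1, 20.4, 22.5 and 18.3 CPM at ZT0, at 21.5, 19.7, 20 and 19 CPM at ZT3 and at 17.5, 19.4, 19.5 and 16.9 CPM at ZT6. It was 22.9, 19.5, 19.5 and 21.2 CPM at ZT9 and 25.8, 23.6, 28.3 and 24.8 CPM at ZT12. At ZT15 it was 32, 32.4, 31.9 and 33.3 CPM, at ZT18 35, 34.3, 32.5 and 31.3 CPM and at ZT21 27.7, 27.4, 25.6 and 25.6 CPM. All 12 mice of ZT15, ZT18 and ZT21 stood above all mice of ZT0, and the second mouse of ZT15 was not low. Of its stretches, 82.9% are unique, and the gene overlaps Gm5129 on the other strand. A least-squares cosine fit to log2 CPM gave an amplitude of 0.42 ± 0.03 SE with a peak at ZT16.8 ± 0.24 SE. The cosine test of edgeR gave an adjusted p = 1.91e-12. Dnaja2 was lowest at ZT6 with 56.5 ± 2.09 CPM and stood between 69.7 ± 5.03 CPM at ZT21 and 82.9 ± 6.21 CPM at ZT18 from ZT9 on (mean ± SD of 4 mice), and it was the single member called higher from ZT6 to ZT9.

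The BAG proteins release clients from HSP70. Bag3, which serves autophagy, was high at ZT0 (50.6 ± 9.5 CPM) and ZT15 (55.4 ± 9.68 CPM), and stood at 33.6 ± 1.83 CPM at ZT12 and 27.7 ± 1.52 CPM at ZT21 (mean ± SD of 4 mice). It was called between time points (adjusted p = 4.13e-06) but neither by JTK (P = 0.825, exact null distribution) nor by the cosine test (adjusted p = 0.492). Bag1 ran from 151 ± 25.4 CPM at ZT15 to 186 ± 7.09 CPM at ZT18 (mean ± SD of 4 mice) and was called by none of the tests.

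The small HSPs Hspb1 and Hspb8 were highest at ZT0. Hspb1 went from 67.1 ± 12.3 CPM at ZT0 to 16.3 ± 2.43 CPM at ZT9 and 43.6 ± 18.5 CPM at ZT15 (mean ± SD of 4 mice), where its mice stood at 67.2, 22.1, 41.6 and 43.4 CPM. Hspb8, the partner of Bag3, went from 68.3 ± 22.8 CPM at ZT0 to 25.6 ± 10.4 CPM at ZT9 and 56.7 ± 9.06 CPM at ZT18 (mean ± SD of 4 mice). Only 56% of the stretches of Hspb1 are unique, the rest being shared with a pseudogene and a predicted gene. Cryab, a small HSP abundant in muscle, varied more within hours than between them: at ZT15 its mice stood at 86, 19.6, 27.3 and 18.1 CPM.

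In Cryab the spread moved with the muscle markers. The ZT15 mouse at 86 CPM had the second highest muscle marker sum of the 32 libraries, 8106 CPM. With the log2 of that sum beside time point in the model, Cryab rose by log2 0.22 for each doubling of the sum (edgeR, adjusted p = 1.1e-05), and it was the single member so called, against 3.24% of all genes. With this covariate 34 members were called between time points, as without it. With the 15 libraries above 1000 CPM left out, which left ZT15 with 1 mouse that is assumed to vary like the others, 25 members were called between time points, against 9.64% of all genes in that fit, and 21 between ZT12 and ZT0, against 2.28%. The covariate and the limit were chosen after the values were seen.

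The mitochondrial chaperones fold proteins imported into the matrix. Hspa9, the mitochondrial HSP70, stayed between 1178 ± 179 CPM at ZT15 and 1399 ± 218 CPM at ZT0 (mean ± SD of 4 mice) and was called by none of the tests. Hspd1 and Hspe1, the barrel and lid of the mitochondrial chaperonin, share a promoter region. Hspd1 went from 619 ± 95.8 CPM at ZT0 to 485 ± 73.4 CPM at ZT12 and Hspe1 from 128 ± 26.5 to 90.4 ± 13.7 CPM (mean ± SD of 4 mice). Both were lower at ZT12 than at ZT0 (log2 -0.35 ± 0.10 SE, adjusted p = 0.0147, and -0.50 ± 0.14 SE, adjusted p = 0.0178, edgeR), and neither passed the test from ZT12 to ZT15, when both means went slightly down.

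Serpinh1, the collagen chaperone of the endoplasmic reticulum, moved with the cytosolic genes. It stood at 336, 409, 491 and 353 CPM at ZT0, at 291, 234, 328 and 233 CPM at ZT3 and at 212, 206, 165 and 150 CPM at ZT6. It was 168, 163, 173 and 166 CPM at ZT9 and 177, 167, 146 and 157 CPM at ZT12. The decline was spread over ZT3 and ZT6. At ZT15 it was 285, 243, 339 and 328 CPM, at ZT18 364, 327, 268 and 307 CPM and at ZT21 201, 272, 224 and 186 CPM. ZT0 and ZT15 both stood clear of ZT12. The 6 fibroblast markers, among them the collagens Col1a1, Col1a2 and Col3a1, summed to 414 to 597 CPM at ZT0 and 706 to 970 CPM at ZT12, without overlap and in the other direction, and 3 of the 6 were called between time points.

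Of the heat-shock transcription factors, Hsf1 moved little but closely with the hour, from 20.5 ± 0.454 CPM at ZT9 to 30.2 ± 1.96 CPM at ZT18 (mean ± SD of 4 mice), with a cosine amplitude of 0.25 ± 0.03 SE on the log2 scale. Hsf2 differed between time points (adjusted p = 0.00514) with its highest mean at ZT6, 13.7 ± 1.57 CPM, and 10.6 ± 0.443 CPM at ZT0 (mean ± SD of 4 mice), and it fell from ZT21 to ZT0. It was called neither by JTK nor by the cosine test.

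All 8 subunits of CCT were called by JTK, by the cosine test and between time points, with small amplitudes. The median amplitude was 0.16 on the log2 scale, against 1.04 for the 3 HSP70 genes and 0.14 for all tested genes. All 8 had their highest mean at ZT0 and were lower at ZT12, from log2 -0.68 ± 0.10 SE for Cct3 to -0.24 ± 0.05 SE for Cct2. The spread between mice was small: Cct5 stood at 118 ± 1.49 CPM at ZT0 and 92 ± 6.84 CPM at ZT9, and Cct8 at 117 ± 3.55 and 83.4 ± 5.08 CPM (mean ± SD of 4 mice). Tcp1, the founding subunit, stood at 198 ± 8.79 CPM at ZT0 and 161 ± 12.3 CPM at ZT12 (mean ± SD of 4 mice). Cct4, Cct6a and Cct7 went from 111 ± 4.11 to 83 ± 0.61, from 112 ± 11.4 to 79.4 ± 4.8 and from 99.4 ± 3.11 to 73.4 ± 2.61 CPM between the same hours. From ZT12 to ZT15, when the HSP70 genes rose, the median log2 change of the 8 was 0.14 and none passed the test in edgeR, with adjusted p of 0.201 and above. Without ZT15 replicate 2 none passed either. The largest changes were then log2 0.26 for Cct3, 0.23 for Cct4 and 0.23 for Cct7 (edgeR, adjusted p = 0.225, 0.0735 and 0.062).

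At dark onset (ZT12) against light onset (ZT0), 31 of the 38 members were lower, where 8.15% of all genes were lower, and Dnajb6 was higher, as 7.71% of all genes were. The levels of the 4 mice of ZT12 lay below all 4 of ZT0 for 27 members, which held for 8.11% of all genes. The median log2 change was -0.61 over the members and 0.0017 over all tested genes. The largest decreases were those of Hspa1b (log2 -3.26 ± 0.51 SE), Hspa1a (-3.16 ± 0.50 SE), Hsph1 (-3.06 ± 0.35 SE), Hsp90aa1 (-1.95 ± 0.27 SE) and Hspb1 (-1.91 ± 0.25 SE). Those not called were Bag1, Cryab, Dnaja2, Hsf2, Hspa9 and Stub1, between log2 -0.63 ± 0.52 SE for Cryab and 0.06 ± 0.08 SE for Stub1. ZT0 and ZT12 were sequenced on different lanes. Some marker sums also differed between these hours without overlap. The 5 endothelial markers summed to less at ZT12 (696 to 779 CPM) than at ZT0 (822 to 1040 CPM), and the 7 lymphoid markers to more (12.6 to 15.4 against 8.41 to 12 CPM), as did the fibroblast markers given above. In each of these 3 lists 3 genes were called between time points, and their part in the result was not tested.

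**Figure D3:**
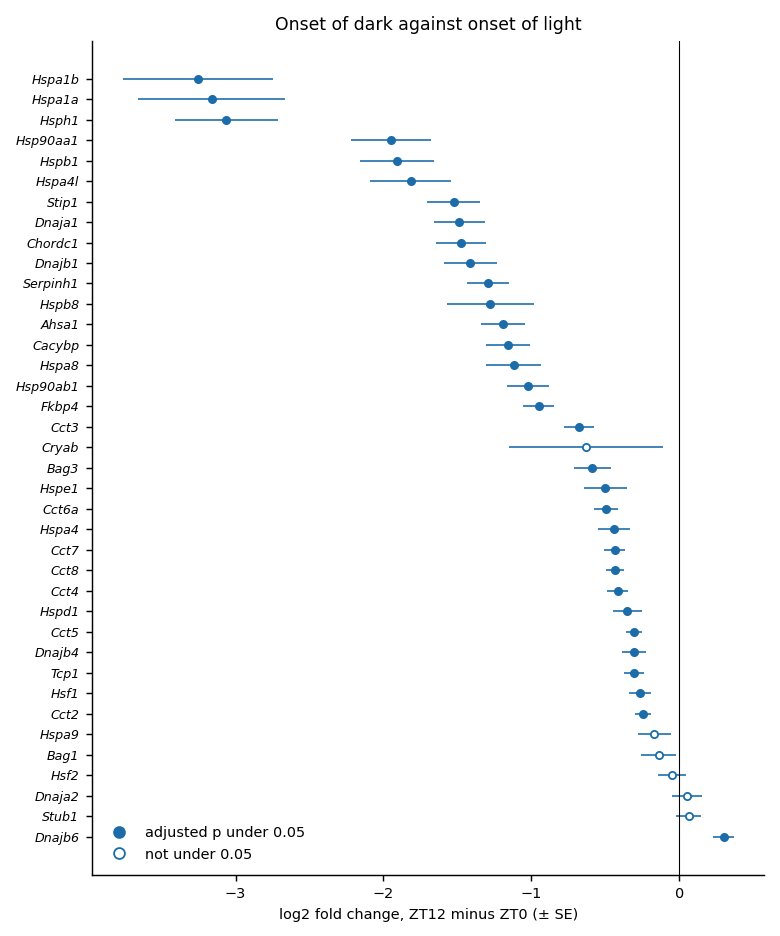
Points are the log2 fold changes of ZT12 against ZT0 of the 38 members in order of size, bars are ± 1 SE from edgeR, and filled points have an adjusted p under 0.05. The points run from -3.26 for Hspa1b to 0.30 for Dnajb6, and 31 filled points lie left of 0.

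The change came in steps of a few hours, most of which lie within a lane. From ZT0 to ZT3, 30 members fell, against 6.6% of all genes falling. The median log2 change was -0.47, and Hspa1b, Hspa1a, Hsph1, Dnajb1 and Chordc1 fell the most. From ZT3 to ZT6 a further 4 fell, Hsph1, Hspa8, Dnaja1 and Serpinh1 (1.21% of all genes). From ZT6 to ZT9, across lanes, 1 member rose, Dnaja2 (1.08% of all genes). From ZT9 to ZT12 0 members were called by edgeR and 1 by DESeq2, and 4 had an unadjusted p under 0.05, all upward. From ZT12 to ZT15, 18 members rose, against 2.03% of all genes. These were Hspa1b, Hspa1a, Hsph1, Dnaja1, Hspb1, Chordc1, Dnajb1, Stip1, Hsp90aa1, Hspa8, Serpinh1, Bag3, Ahsa1, Cacybp, Hsp90ab1, Dnajb4, Fkbp4 and Dnajb6, in order of size.

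From ZT15 to ZT18, across lanes, 2 members fell in edgeR, Bag3 and Dnajb4 (0.748% of all genes), while DESeq2 called 4 lower and 1 higher. From ZT18 to ZT21, within a lane, 8 members fell (0.826% of all genes), led by Hspa8, Dnaja1 and Dnajb1. Hspa1a and Hspa1b had log2 changes of -1.39 ± 0.49 SE and -1.64 ± 0.50 SE there without passing (edgeR, adjusted p = 0.141 and 0.0793). In a fit of the libraries of these 2 hours alone both passed (adjusted p = 0.0405 and 0.0192), as did Hsph1 (0.0434, against 0.0563 with all libraries). From ZT21 to ZT0, across lanes, 22 members rose (3.5% of all genes), and Dnajb6 and Hsf2 fell (4.22% of all genes). Over the steps, too, marker sums moved without overlap. The fibroblast sum was higher at ZT3 (730 to 1128 CPM) than at ZT0, and the lymphoid sum lower at ZT15 (8.04 to 11.3 CPM) than at ZT12. The endothelial sum was lower at ZT21 (780 to 791 CPM) than at ZT18 (816 to 921 CPM) and at ZT0. Their part in the step changes was not tested. Counts depended on single libraries, the large ones too. The 30 falls from ZT0 to ZT3 became 22 without ZT0 replicate 3 and 32 without ZT0 replicate 4. The 22 rises from ZT21 to ZT0 became 15 and 25 without these libraries. The 18 rises from ZT12 to ZT15 became 15 without ZT12 replicate 3 or ZT15 replicates 1, 3 or 4. The 8 falls from ZT18 to ZT21 became 5 without ZT18 replicate 1, ZT18 replicate 2 or ZT21 replicate 1. The 2 falls from ZT15 to ZT18 became 0 without ZT15 replicates 1, 3 or 4 or ZT18 replicates 1 or 2, 1 without ZT18 replicate 4 and 4 without ZT15 replicate 2. The 4 falls from ZT3 to ZT6 became 1 without ZT3 replicates 1 or 3 or ZT6 replicates 3 or 4, and 2 without ZT6 replicates 1 or 2, ZT12 replicate 3, ZT18 replicate 4 or ZT21 replicate 4. The rise of Dnaja2 was lost without any of ZT6 replicates 1, 2 or 3 and ZT9 replicates 1, 2 or 4, and 1 of the falls from ZT21 to ZT0 without ZT0 replicates 1, 2 or 3 or ZT21 replicates 1 or 3.

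**Figure D4:**
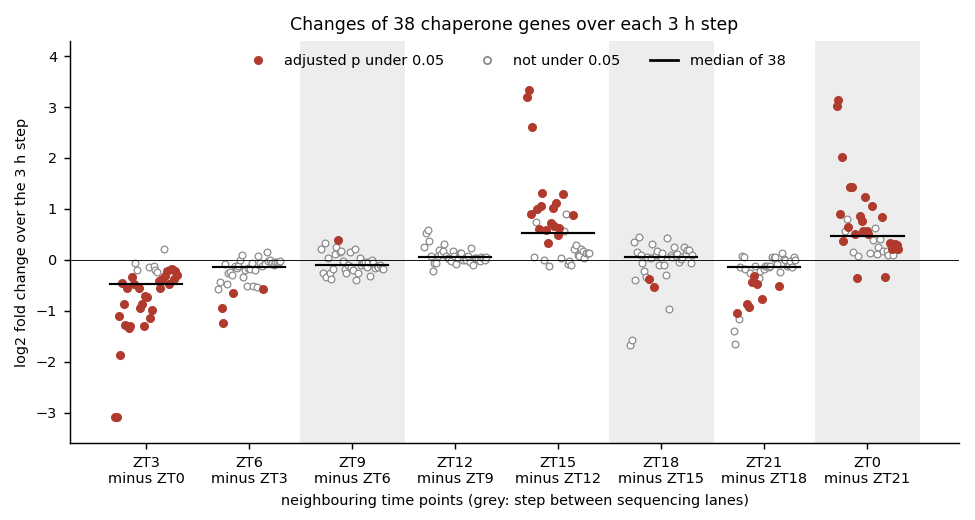
Each point is the log2 fold change of 1 member over a 3 h step, filled where its adjusted p is under 0.05, with the median of the 38 as a line; grey marks steps between lanes. The medians are -0.47 for ZT3 minus ZT0, 0.53 for ZT15 minus ZT12 and 0.47 for ZT0 minus ZT21, and filled points are absent for ZT12 minus ZT9.

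With the hours of 1 lane tested alone, 30 members differed among ZT0, ZT3 and ZT6 (12.7% of all genes), 16 among ZT9, ZT12 and ZT15 (1.75%) and 10 between ZT18 and ZT21 (4.06%). With lane as an additive factor, the cosine test called 31 members (17.2% of all genes). What lane adds to the steps between lanes was not tested.

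Mice of the same hour differed in these genes. At ZT15 the second mouse had the lowest level of the 4 mice for 26 of the 38 members, and replicates 1, 3 and 4 for 8, 2 and 2. The share of all genes lowest in the second mouse was not counted. Without it Hspa1b rose from ZT12 to ZT15 by log2 3.70 ± 0.39 SE (adjusted p = 3.08e-06) and Hsph1 by 2.83 ± 0.33 SE (adjusted p = 1.42e-05). Its muscle marker sum of 1530 CPM lay between those of its companions, 864 to 8106 CPM, as did its brown adipocyte, blood, macrophage and fibroblast sums. Its endothelial sum, 764 CPM, was below theirs, 869 to 902 CPM. Its white adipocyte sum (7338 against 6266 to 7305 CPM) and lymphoid sum (11.3 against 8.04 to 10.7 CPM) were above theirs. The part of these sums in its chaperone levels was not tested. That mouse was singled out after its values were seen.

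Whether chaperone transcripts go together among mice of an hour was asked for Hspa1b and 6 partners, on deviations of log2 CPM from the time-point mean in 32 libraries, by permuting mice within hours (100000 resamples, two-sided, BH over the 6). Dnajb1 was related to Hspa1b (Pearson r = 0.78, permutation p = 0.00375, BH 0.0225; Spearman rho = 0.642, p = 0.00274). For Hsph1 r was 0.48 (permutation p = 0.0423, BH 0.105; rho = 0.352, p = 0.106) and for Hsp90aa1 0.308 (permutation p = 0.135, BH 0.203; rho = 0.183, p = 0.361). For Hspd1 r was -8.49e-05 (permutation p = 0.999, BH 0.999; rho = -0.0649, p = 0.739) and for Cct2 0.0379 (permutation p = 0.798, BH 0.957; rho = 0.0568, p = 0.746). Cirbp encodes an RNA-binding protein that cells make more of in mild cold, and its r was -0.465 (permutation p = 0.0526, BH 0.105; rho = -0.469, p = 0.0274).

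The relation with Dnajb1 was past the threshold without ZT0 replicate 3 and ZT15 replicate 4, the 2 libraries farthest from the median of Hspa1b (r = 0.762, BH 0.0474). They were picked by level and not by deviation from the hour, so ZT15 replicate 2, with a deviation of -2.5, stayed in. The relation rested on few mice. With 10000 resamples for each library left out, r was 0.545 without ZT15 replicate 2 (BH 0.0786). BH was also above 0.05 without ZT0 replicate 1 (r = 0.785), ZT0 replicate 4 (r = 0.747) or ZT18 replicate 3 (r = 0.77). For the last of these BH was 0.0522, so close to 0.05 that the number of resamples matters. For Hsph1 r was 0.154, 0.803 and 0.61 on lanes 2, 3 and 4 and for Cirbp -0.775, -0.222 and -0.592. For Dnajb1 r was 0.649 on lane 2, 0.914 on lane 3 and 0.593 on lane 4 (BH 0.243, 0.351 and 0.324 from permutations), so it did not pass in any lane alone. Without ZT15 replicate 2, Cirbp passed (r = -0.594, BH 0.0462), as it did without ZT15 replicate 1 (r = -0.587, BH 0.0126), and without ZT3 replicate 1 Hsph1 passed (r = 0.567, BH 0.0336). Without ZT15 replicate 2, r fell to 0.253 for Hsph1 and to 0.0798 for Hsp90aa1. Over the hours Cirbp stood at 16.1 ± 4.89 CPM at ZT0, 13.9 ± 3.05 CPM at ZT15 and 16.6 ± 4.02 CPM at ZT18, and between 29.6 ± 1.54 and 33 ± 7.05 CPM from ZT3 to ZT12 (mean ± SD of 4 mice). Rbm3, the other cold-inducible gene listed, stood at 35.9 ± 3.56 CPM at ZT0, was lowest at ZT3 with 29.1 ± 6.76 CPM, reached 36.6 ± 4.33 CPM by ZT12 and was highest at ZT15 with 41.5 ± 4.61 CPM, followed by 38.7 ± 3.66 CPM at ZT18 and 36.6 ± 4.8 CPM at ZT21 (edgeR, adjusted p = 0.0154 between time points). Its relation to Hspa1b among mice was not tested.

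**Figure D5:**
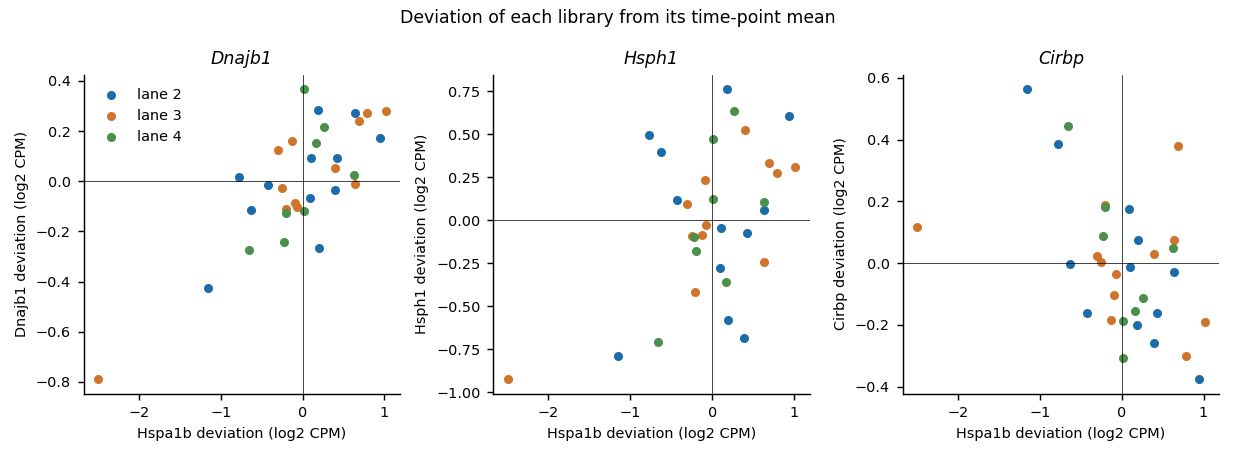
Each point is 1 library; axes are deviations of log2 CPM from the mean of the library's hour, for Hspa1b (x) against Dnajb1, Hsph1 and Cirbp (y), coloured by lane. The lane 3 point at the far left is ZT15 replicate 2, and Pearson's r is 0.78, 0.48 and -0.465.

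Of 56 other chaperone and co-chaperone genes, 54 passed the filter on low counts. Among these, 24 differed between time points, as 39.8% of all genes did. At ZT12 against ZT0, 11 were lower and 4 higher, where 8.15% and 7.71% of all genes were, and the median log2 change between these hours was -0.06. The 5 with the lowest p were Fkbp5, Clpx, Ppid, Bag4 and Ptges3. Ppid and Ptges3, an immunophilin and the p23 protein of HSP90 complexes, were also lower at ZT12 than at ZT0: Ppid went from 44.5 ± 4.29 CPM at ZT0 to 25.7 ± 1.19 CPM at ZT12 and 38.7 ± 5.24 CPM at ZT15, and Ptges3 from 66.6 ± 10.5 to 36.2 ± 2.6 and 51.1 ± 6.85 CPM (mean ± SD of 4 mice). Fkbp5, an immunophilin induced by glucocorticoids, ran differently, from 7.04 ± 2.59 CPM at ZT0 to 28.5 ± 16.3 CPM at ZT12 and 45.3 ± 14.2 CPM at ZT15 (mean ± SD of 4 mice). Clpx, of the mitochondrial ClpXP protease, was highest at ZT21 (189 ± 7.97 CPM) and lowest at ZT15 (115 ± 10.5 CPM), and Bag4 was highest at ZT6 (49.5 ± 8.06 CPM) and lowest at ZT18 (30 ± 1.5 CPM, ± SD of 4 mice).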

How the data were processed

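iBAT from 32 male mice, 4 at each of 8 Zeitgeber times, was sequenced as 1 stranded library per mouse with paired reads of 100 bases. The authors aligned the reads to mm10 with GSNAP and counted them per Ensembl gene with HTSeq-count 0.6.1, and the deposited values are raw read counts. Whether strand was used in counting is not given in the sources used here. Samples were grouped by the labelled Zeitgeber time, and lanes were read from the labels. Total counts per library were 16300770 to 18254659.

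Genes were filtered with filterByExpr (15505 kept, holding 99.9% of counts), scaled by TMM and tested with edgeR 4.0.16 (quasi-likelihood, BH adjustment over all genes kept, prior count 2) in R 4.3.3: differences between time points, a 24 h cosine, a 12 h component, ZT12 against ZT0 and the 8 steps. JTK was recomputed with periods of 21 and 24 h; its shifts were set to less than a whole interval after first counts had been seen. DESeq2 1.42.0 served as an alternative. Scripts were tested on simulated data. The members and lists were chosen with earlier results of these data known. The named members were the 10 with the lowest p between time points, and of the other chaperone genes the 5 lowest. Uniqueness is the share of 100-base stretches of a gene's exons that occur in no other gene. Mice within a time point differed by more than sampling noise in all 48 pairs of libraries, so each was counted as 1 sample. Alternatives were DESeq2 and its size factors, library size, other filters, a replicate block, lanes, leaving out each library and, added after seeing the data, a muscle covariate and a muscle limit.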

Additional observations from a re-analysis of the deposited data

Results flagged for a closer look

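In 80 groups of 4 mice, formed by the 10 named members at 8 times, 5 groups held a value far from the other 3 by Dixon's criterion, which chance alone gives in about 1 group of 20. At ZT15, replicate 2 stood low for Hsph1 (63.06 CPM, others 144.8 to 151.1 CPM), Dnajb1 (26.95 CPM, others 55.08 to 56.61 CPM) and Chordc1 (53.25 CPM, others 72.91 to 76.32 CPM). Dnajb4 stood low in ZT9 replicate 2 (37.52 CPM, others 43.79 to 44.35 CPM) and in ZT18 replicate 1 (53.29 CPM, others 56.9 to 57.6 CPM). With 5 of 80 groups flagged, the share was near that given by chance, and no cause of these values was tested.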

How the results depend on the processing

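For the 10 named members at ZT12 against ZT0, no fold change changed sign under the settings tried, but 2 lost their call. Dnajb6 was not called with the 8 libraries of these hours alone (log2 0.30) or without those above the muscle limit (0.26), and Dnajb4 in the same settings (-0.31 and -0.37) and with library size alone (-0.25). The 8 libraries alone called 25 members; the other members and the steps were compared across settings by counts. Among relations that did not pass, the sign of r changed: for Hspd1, near 0 over all libraries (-8.49e-05), r was 0.0609 with library size alone and 0.843 in lane 4, and for Cct2 (0.0379) it was -0.0782 in lane 2. Without the 15 libraries above the muscle limit, 21 members were called at ZT12 against ZT0 (32 with all) and 35 calls were made over the 3 h steps (87 with all); fewer libraries were then tested. Among time points, lane 3 alone gave 16 members and lane 4 alone 10 (34 with all). Of the 6 relations, 0 passed in lane 2, lane 3 or lane 4, against 1 over all libraries. Leaving out 1 library gave 32 to 34 members by JTK, 32 to 33 by cosine, 32 to 35 between time points, 29 to 32 at ZT12 against ZT0, 71 to 94 step calls and 0 to 2 relations. With the replicate number as a replicate block, the counts were 33, 34, 32 and 84 for cosine, time points, ZT12 against ZT0 and steps. Same-numbered mice did not deviate together (mean r = -0.0333 over 112 pairs), so the numbers do not pair them. Low levels of Hspa1a and Hspa1b, between 7 and 326 reads per library, limit the precision of their folds.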
